A study of Mus musculus with 23 samples.

Results

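Interferon beta (Ifnb1) and the 4 chains of the interferon receptors (Ifnar1, Ifnar2, Ifngr1 and Ifngr2) were followed in bone marrow-derived macrophages (BMDM) by 1-colour Agilent mouse microarrays. The members were chosen by name, through the accession that the scanner files give for each probe, and all 5 of 5 were found among 26512 genes, on 7 of 33391 probes. Ifnar1 had 3 probes and each of the other members had 1. The groups were wt BMDM, BMDM of mice lacking MK2 (MK2-/-) and BMDM of mice lacking both MK2 and MK3 (MK2/3-/-), each left in medium or exposed to LPS (100 ng/ml) over 120 min. There were 4 arrays per group, except MK2-/- BMDM in medium with 3 (23 arrays in all), and the mice were male C57BL/6 animals, 12 to 13 weeks old (wt), 10 to 13 weeks (MK2-/-) and 11 to 14 weeks (MK2/3-/-). The deletions were present in the whole animal and no group lacked MK3 alone. Each culture was taken to have given both a medium and an LPS array, apart from 1 MK2-/- culture without a medium array.

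MK2 and MK3 are protein kinases that are switched on by p38 MAP kinase. IFN-β is the type I interferon that macrophages release soon after LPS engages TLR4, when IRF3 and NF-κB act together on the Ifnb1 gene. IFN-β binds a receptor made of the chains IFNAR1 and IFNAR2, whereas IFN-γ, made by T and NK cells, binds IFNGR1 and IFNGR2. Both receptors signal through JAK kinases and STAT proteins and so switch on interferon-stimulated genes.

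The stretch before the start of Ifnb1 is shown because this gene rose most of the members and its enhancer is the textbook case of several factors on a short piece of DNA. The 100 bases lie on the minus strand at chr4:88522865-88522964 (RefSeq, GRCm38.p6), at bases -170 to -71 counted back from the annotated start. Capitals mark 3 matches to AANNGAAA, the core that IRF factors read, then 1 match to the kappa B consensus of NF-κB and 1 TATAAA.
Ifnb1: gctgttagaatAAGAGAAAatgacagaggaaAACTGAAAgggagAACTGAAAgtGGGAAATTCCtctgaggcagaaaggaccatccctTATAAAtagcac
The IRF cores sit at -159 to -152, -139 to -132 and -126 to -119, the kappa B match at -116 to -107 and the TATAAA at -82 to -77. A further TATAAA lies at -210 to -205. Over the 250 bases before the start of 32851 RefSeq promoters, read on both strands, 21.3% hold AANNGAAA, 3.9% the kappa B consensus and 12.4% TATAAA. One more motif was searched, GAAA followed after 2 bases by GAAA, which 2.98% hold and no member's window does. No match to any of these motifs was found in the same window of Ifnar1, Ifnar2 or Ifngr1, and that of Ifngr2 held 1 kappa B match, on the opposite strand at -75 to -66. These motifs were picked with the sequences in view, and a match is a description of letters only.

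Among the arrays as a whole, 47.5 to 69.1% of probes were well above background and no spot was saturated. All arrays of a genotype were on 1 slide scanned together, so that slide and genotype cannot be told apart, and on every slide the medium arrays lay in 1 row and the LPS arrays in the other, so that row and LPS cannot be told apart either. The probe of Mapkapk2, which encodes MK2, averaged 12.22 in medium and 14.77 after LPS in wt BMDM, against 8.91 and 11.96 in MK2-/- BMDM and 8.72 and 11.76 in MK2/3-/- BMDM (log2 intensity). Mapkapk3 (MK3) averaged 11.88 and 10.70 in MK2/3-/- BMDM, below all arrays of the other genotypes. Of 10 listed macrophage markers 9 were measured, and all 9 were well above background on all 23 arrays. Marker genes of stromal cells differed widely between arrays, and their values and those of dendritic cell markers are given beside the Ifnb1 results.

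Ifnb1 went from background in medium to a bright signal after LPS in every genotype. By its fitted LPS change, which rests on background in medium and is therefore a description only, it stood at rank 1 of 26512 genes in wt BMDM and at rank 2 in each knockout. In wt BMDM its quantile-normalized log2 intensity in the 4 LPS arrays was 14.58, 15.54, 14.10 and 15.26, against 1.95, 2.23, 1.98 and 2.16 in medium. In MK2-/- BMDM it was 12.22, 13.08, 12.56 and 14.75 after LPS and 2.14, 2.20 and 2.26 in medium. The MK2/3-/- arrays gave 13.46, 13.44, 13.13 and 14.76 after LPS and 3.09, 2.64, 1.94 and 2.05 in medium. All LPS arrays thus lay far above all medium arrays, and in each knockout 1 LPS array, replicate 4, stood within the wt range while the other 3 lay below every wt array. The medium values were background: of the medium arrays, 0 of 4 (wt), 0 of 3 (MK2-/-) and 1 of 4 (MK2/3-/-) gave a signal clearly over local background, the last being the array at 2.64.

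**Figure D1:**
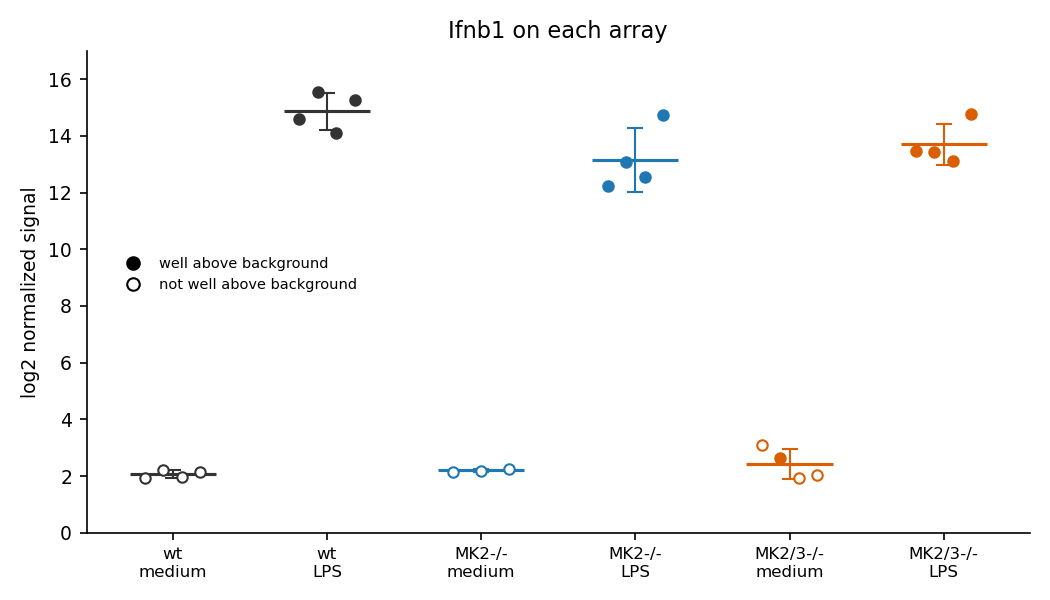
Ifnb1 signal on the 23 arrays (quantile-normalized log2 intensity) in the 6 groups. Each point is an array, lines are group means, bars are SD, and open points are arrays where the probe was not well above background. The LPS arrays range from 12.22 to 15.54 and the medium arrays from 1.94 to 3.09.

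Because Ifnb1 was at background in medium, its induction has only a lower bound. Set against the dimmest signal that counted as well above background, LPS raised Ifnb1 at least 2730.3-fold in wt BMDM and at least 773-fold in MK2-/- BMDM. For MK2/3-/- BMDM, where 1 of 4 medium arrays measured the probe, the same calculation gave at least 1089-fold. These bounds hold on the scale of the scanner's background-subtracted signal. The fitted log2 changes, which rest on the background signals themselves, were 12.79 (SE 0.45, limma adjusted p = 2.6e-13) in wt, 10.95 (SE 0.49, adjusted p = 8.9e-12) in MK2-/- and 11.26 (SE 0.45, adjusted p = 1.6e-12) in MK2/3-/- BMDM. With normexp background correction and its added offset of 50 intensity units, which raises dim signals, they were 8.57, 6.87 and 7.35.

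After LPS the order of the Ifnb1 means was wt (14.87 ± 0.65, SD, n = 4), MK2/3-/- (13.69 ± 0.72, SD, n = 4) and MK2-/- (13.15 ± 1.12, SD, n = 4). The arrays of neighbours in this order overlapped. The exact two-sided permutation p was 0.0857 for wt against MK2/3-/- and 0.429 for MK2/3-/- against MK2-/-. The smallest that 4 against 4 arrays allow is 0.0286. MK2-/- BMDM reached 30.3% of the wt intensity, a log2 difference of -1.72 (95% interval -2.67 to -0.77, limma adjusted p = 0.338 over all genes). MK2/3-/- BMDM reached 44.3%, a log2 difference of -1.18 (95% interval -2.13 to -0.23, limma adjusted p = 0.241). These differences share the wt arrays and neither passed the adjusted threshold. The knockouts differed from each other by 0.54 (95% interval -0.41 to 1.49, limma adjusted p = 0.838).

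Replicate 4 of MK2-/- BMDM decided the first of these differences. Without that LPS array the log2 difference between MK2-/- and wt BMDM was -2.25 with a limma adjusted p of 0.0294, and it was the only omission of an array that made the call. On the same arrays the summed intensity of stromal cell markers was 2540, 1480, 7500 and 32300 in MK2-/- BMDM after LPS, 889, 1880, 12100 and 49000 in MK2/3-/- BMDM and 87800, 3900, 19000 and 35300 in wt BMDM. Over all arrays the sum of these 6 markers ran from 3900 to 106000 in wt BMDM, 1250 to 34600 in MK2-/- and 546 to 59000 in MK2/3-/- BMDM, with no member of the list called after LPS in any genotype. Replicate 4 thus had the highest Ifnb1 and the highest stromal sum in each knockout, while in wt BMDM replicate 2, with the highest Ifnb1, had the lowest stromal sum. Replicate 4 also lay in slide column 4 in every genotype. Its donor was 13 weeks old in MK2-/- (the others 10 to 12) and 12 weeks old in MK2/3-/- BMDM (the others 11 to 14). The part of slide column and age was not tested. The summed intensity of 4 dendritic cell markers was higher on LPS arrays. It ran from 66.7 to 138 on medium arrays and from 945 to 2000 on LPS arrays in wt BMDM. The ranges were 87.9 to 386 and 1080 to 1670 in MK2-/-, and 79.1 to 261 and 1010 to 1900 in MK2/3-/- BMDM. In each genotype 1 of 4 was called up, beside 16.9% (wt), 18.4% (MK2-/-) and 24.7% (MK2/3-/-) of all genes. Only 2 of 4 were well above background on all arrays of at least 1 group, so the sum need not speak for the list. For 4 plasmacytoid dendritic cell markers the sums were 63.3 to 119 and 170 to 337, 64.2 to 99.3 and 143 to 264, and 78 to 141 and 164 to 345. Here too 1 of 4 was called up in each genotype and 2 of 4 were well above background on all arrays of at least 1 group. After LPS the sums of both lists overlapped between genotypes. The part of these cells in the Ifnb1 results was not tested, and in such bulk RNA fewer cells of a type and less RNA per cell cannot be told apart.

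The difference in LPS response itself was also fitted. For Ifnb1 it subtracts medium signals at background, so that the size and the interval carry that noise. The LPS change of Ifnb1 in MK2-/- BMDM minus that in wt BMDM was -1.84 on the log2 scale (95% interval -3.24 to -0.44, limma adjusted p = 1.00). For MK2/3-/- against wt BMDM it was -1.53 (95% interval -2.87 to -0.19, limma adjusted p = 0.993, or 0.518 with the culture as a block). No member was called in these tests of the LPS response, 0 of 5 for each pair of genotypes, beside 0.00377% (MK2-/- against wt), 0.0113% (MK2/3-/- against wt) and 0% (MK2/3-/- against MK2-/-) of all genes. By limma's unadjusted p under 0.05, 1, 1 and 0 members and 510, 1205 and 767 of all genes passed. With the culture as a block, limma called 12 genes in place of 3 for MK2/3-/- against wt, and the members' counts did not move.

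The receptor genes were present on every array and moved little beside Ifnb1. With the probe used for each gene, limma called 2 of 5 members (2 up) after LPS in wt BMDM, beside 16.9% of all genes. It called 3 of 5 (2 up, 1 down) in MK2-/- BMDM, beside 18.4%, and 3 of 5 (2 up, 1 down) in MK2/3-/- BMDM, beside 24.7%. The median log2 change over all genes was 0.01, -0.01 and -0.02 in the same order. The members that rose were Ifnb1 and, by the probe used, Ifnar1, and the member that fell was Ifngr2. Of the 3 Ifnar1 probes, 2 rose and the brightest went down.

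Ifnar1, the chain needed to start type I interferon signalling, gave opposite answers by probe. On its brightest probe (A_55_P2036337) the log2 intensity in wt BMDM was 12.70, 12.49, 13.17 and 13.19 after LPS and 13.38, 13.68, 13.39 and 13.52 in medium. In MK2-/- BMDM it was 13.09, 12.96, 13.24 and 13.12 after LPS and 13.32, 13.67 and 13.67 in medium. MK2/3-/- BMDM gave 12.64, 12.46, 12.82 and 13.13 after LPS and 13.21, 13.66, 13.51 and 13.71 in medium. In each genotype every LPS array lay below every medium array on this probe (exact permutation p = 0.0286, the smallest possible), and it went down in 11 of 11 cultures.

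The second probe of Ifnar1 (A_55_P2454784), which rose most in wt BMDM and therefore stood for the gene, ran the other way. Its log2 intensity in wt BMDM was 10.62, 11.03, 11.10 and 10.35 after LPS and 9.64, 9.85, 9.75 and 9.72 in medium. In MK2-/- BMDM it was 10.63, 11.28, 10.96 and 10.49 after LPS and 9.44, 9.89 and 9.83 in medium. The MK2/3-/- arrays gave 10.53, 10.92, 10.62 and 10.24 after LPS and 9.65, 9.83, 9.68 and 9.75 in medium. Every LPS array lay above every medium array of its genotype. The dimmest probe (A_55_P2438722) moved in the same direction, with medium arrays from 8.27 to 8.92 and LPS arrays from 9.04 to 9.93, and both probes went up in 11 of 11 cultures.

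The log2 change with LPS on the brightest probe was -0.60 (SE 0.17, limma adjusted p = 0.0182 over all probes) in wt BMDM, -0.45 (adjusted p = 0.104) in MK2-/- and -0.76 (adjusted p = 0.00232) in MK2/3-/- BMDM. On the second probe it was 1.03 (SE 0.19, limma adjusted p = 0.000522), 1.12 (SE 0.20, adjusted p = 0.000459) and 0.85 (SE 0.19, adjusted p = 0.00203). On the dimmest probe it was 0.86, 0.99 and 0.70 (limma adjusted p = 0.00283, 0.00157 and 0.00882). Over all 33391 probes, 17.8% were called in wt BMDM, 19.2% in MK2-/- and 25.9% in MK2/3-/- BMDM. The wt call on the brightest probe was lost without wt LPS replicate 1 (-0.54, adjusted p = 0.0581), wt LPS replicate 2 (-0.47, adjusted p = 0.0815) or wt medium replicate 2 (-0.54, adjusted p = 0.0602).

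The contrast between the probes was also seen within arrays. The brightest probe minus the second was 3.64 to 3.83 in wt medium and 1.46 to 2.84 after LPS, 3.78 to 3.88 and 1.68 to 2.62 in MK2-/- BMDM, and 3.57 to 3.96 and 1.54 to 2.89 in MK2/3-/- BMDM (log2). The difference between the probes thus narrowed with LPS, by a mean change of -1.64 in wt BMDM, of -1.57 in MK2-/- and of -1.62 in MK2/3-/- BMDM, which restates within arrays the opposite directions above. The probes give no single direction for Ifnar1. Which parts of the transcript the probes match was not analysed here, and the cause was not tested.

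**Figure D2:**
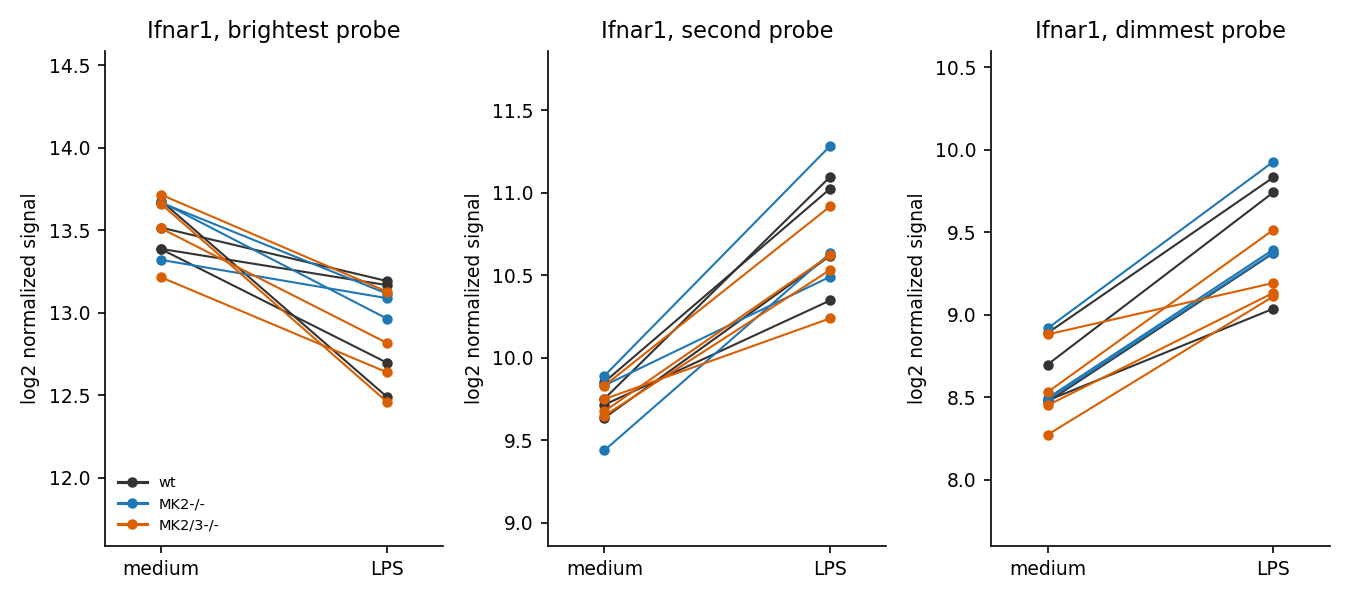
The 3 Ifnar1 probes in medium and after LPS (quantile-normalized log2 intensity), with a line for each of 11 cultures. The brightest probe goes down in 11 of 11 cultures and the other probes go up in 11 of 11.

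Ifnar2, the chain that with Ifnar1 completes the type I receptor, changed little. In wt BMDM its log2 intensity was 13.91, 14.28, 14.26 and 14.33 after LPS and 14.09, 14.40, 14.39 and 14.26 in medium. In MK2-/- BMDM it was 13.83, 14.03, 13.98 and 14.03 after LPS and 14.15, 14.23 and 14.44 in medium. MK2/3-/- BMDM gave 13.84, 14.06, 13.92 and 13.88 after LPS and 13.98, 14.34, 14.08 and 14.19 in medium. The groups overlapped in wt and MK2/3-/- BMDM and were apart in MK2-/- BMDM. The LPS changes were -0.09 (SE 0.12), -0.30 (SE 0.13) and -0.22 (SE 0.12) in wt, MK2-/- and MK2/3-/- BMDM (limma adjusted p = 0.735, 0.120 and 0.206), and 10 of 11 cultures went down.

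Ifngr2, the signalling chain of the IFN-γ receptor, fell with LPS in both knockouts. In wt BMDM its log2 intensity was 13.05, 13.21, 13.53 and 13.40 after LPS and 13.34, 13.84, 13.68 and 13.54 in medium. In MK2-/- BMDM it was 12.99, 13.10, 13.05 and 13.13 after LPS and 13.62, 13.62 and 13.85 in medium. The MK2/3-/- arrays gave 12.75, 12.90, 13.41 and 13.11 after LPS and 13.66, 13.94, 13.59 and 13.80 in medium. The LPS and medium arrays overlapped in wt BMDM and did not overlap in either knockout (exact permutation p = 0.0286 in each knockout), and Ifngr2 went down in 11 of 11 cultures.

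The LPS intensity of Ifngr2 was 81.1% of medium in wt BMDM (log2 -0.30, SE 0.15, limma adjusted p = 0.201), 64.6% in MK2-/- BMDM (-0.63, SE 0.16, adjusted p = 0.00762) and 61.3% in MK2/3-/- BMDM (-0.71, SE 0.15, adjusted p = 0.00124). The LPS change was not shown to differ between genotypes: it was -0.33 for MK2-/- against wt (95% interval -0.78 to 0.12) and -0.40 for MK2/3-/- against wt (95% interval -0.84 to 0.03, limma adjusted p = 1.00).

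Ifngr1, the IFN-γ binding chain, showed no shared direction with LPS. In wt BMDM its log2 intensity was 13.58, 13.75, 14.43 and 14.05 after LPS and 13.49, 14.11, 14.13 and 13.80 in medium. In MK2-/- BMDM it was 14.12, 13.81, 14.12 and 14.45 after LPS and 14.31, 14.27 and 14.22 in medium. MK2/3-/- BMDM gave 14.21, 13.94, 14.52 and 14.45 after LPS and 14.34, 14.58, 14.07 and 14.07 in medium. The groups overlapped in every genotype, with 6 cultures up and 5 down. The LPS changes were 0.07, -0.14 and 0.01 (limma adjusted p = 0.901, 0.749 and 0.977), with upper 95% limits of 0.49, 0.30 and 0.43.

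**Figure D3:**
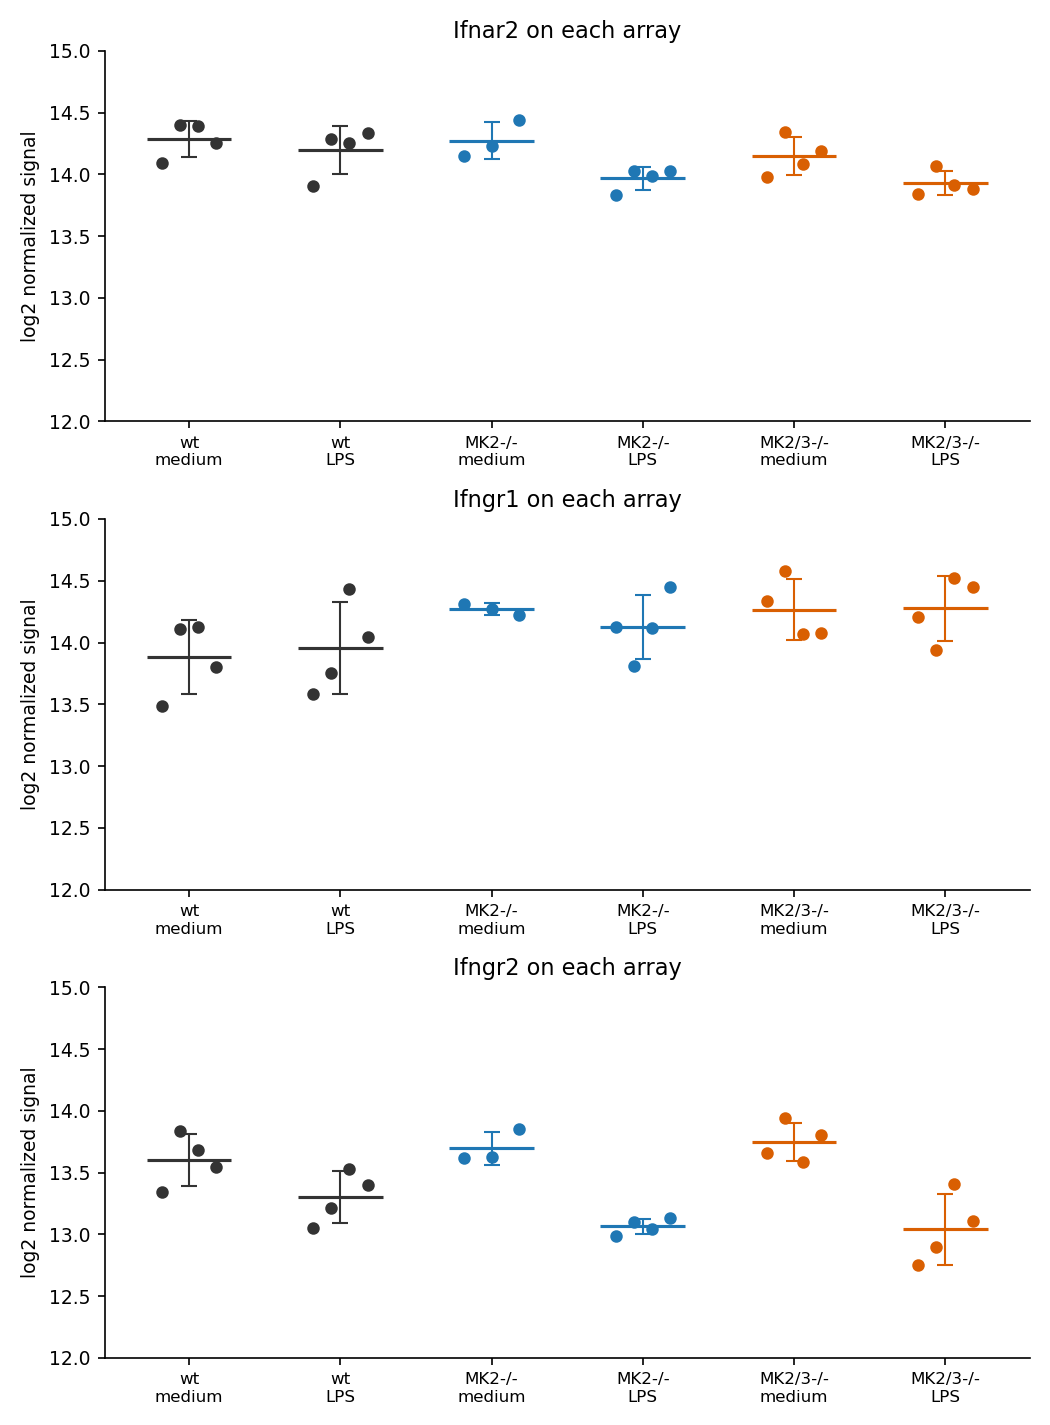
Ifnar2, Ifngr1 and Ifngr2 on the 23 arrays (quantile-normalized log2 intensity) in the 6 groups, with a point per array, the mean as a line and the SD as bars. Ifngr2 after LPS lies below medium without overlap in both knockouts, and Ifngr1 overlaps between LPS and medium in every genotype.

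The receptor falls have to be read against the scaling, since bright probes as a class shifted. For 1290 genes with a mean log2 level of 13 to 15, the median LPS change was -0.14, -0.19 and -0.19 in wt, MK2-/- and MK2/3-/- BMDM after quantile normalization, but 0.21, 0.20 and 0.20 when each array was scaled to its 75th percentile. Under the latter scaling the Ifngr2 changes were 0.05, -0.28 and -0.36 and none was called (limma adjusted p = 0.348 and 0.140 in the knockouts). Those of the brightest Ifnar1 probe were -0.27, -0.11 and -0.45 under it, again with none called. Relative to the median of the equally bright genes, Ifngr2 changed by -0.16, -0.44 and -0.52 with quantile normalization and by -0.17, -0.47 and -0.56 with percentile scaling. These relative values are plain differences and were not tested. With quantile normalization 53.7% of all genes changed more than Ifngr2 in wt BMDM, in either direction, and 32.1% did in each knockout. The brightest Ifnar1 probe changed by -0.46, -0.26 and -0.58, and by -0.48, -0.31 and -0.64. Ifnar2 and Ifngr1 lay within 0.24 of the equally bright genes in every genotype under both scalings.

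After LPS the receptor genes did not differ between genotypes by the adjusted test. Limma called 0 of 5 members for MK2-/- against wt BMDM, 0 of 5 for MK2/3-/- against wt and 0 of 5 for MK2/3-/- against MK2-/-, beside 0.0302%, 1.64% and 0.158% of all genes. At an unadjusted p under 0.05, 1, 2 and 0 members passed: Ifnb1 in the first pair, and Ifnb1 with Ifnar2 in the second. For Ifnar2, MK2/3-/- minus wt BMDM was -0.27 on the log2 scale (95% interval -0.52 to -0.02, limma adjusted p = 0.329). For Ifngr2 the differences from wt were -0.23 in MK2-/- and -0.26 in MK2/3-/- BMDM, and for the second Ifnar1 probe they were 0.07 and -0.19.

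In medium, limma again called 0 of 5 members in each pair of genotypes, beside 0.00754% (MK2-/- against wt), 0.0792% (MK2/3-/- against wt) and 0.0453% (MK2/3-/- against MK2-/-) of all genes, and 0 members passed at an unadjusted p under 0.05. Ifngr1 gave the widest receptor differences, with log2 0.39 in MK2-/- (95% interval -0.06 to 0.84, limma adjusted p = 1.00) and 0.38 in MK2/3-/- BMDM relative to wt. All 3 MK2-/- arrays in medium lay above all 4 wt arrays for Ifngr1 (exact permutation p = 0.0857 on the difference of means).

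The level of Ifnb1 was next set against that of each receptor over the 12 LPS arrays. Pearson's r was -0.31 for Ifnar1 (second probe, permutation p = 0.325), 0.59 for Ifnar2 (p = 0.0493), -0.13 for Ifngr1 (p = 0.693) and 0.36 for Ifngr2 (p = 0.250), with Spearman's rho of -0.43, 0.46, -0.10 and 0.46 (permutation p = 0.163, 0.135, 0.766 and 0.134). There were 8 relations, 4 with receptor levels and 4 with receptor LPS changes. Their Benjamini-Hochberg adjusted permutation p of r ran from 0.394 to 0.693, and none passed. The relation of Ifnb1 with Ifnar2 fell to r = 0.36 (permutation p = 0.312) without the 2 arrays farthest from the Ifnb1 median, wt LPS replicate 2 and MK2-/- LPS replicate 1, and to 0.29 for deviations from the genotype means. It was thus weaker both without those arrays and within genotypes. For Ifnar1, r was -0.66 without the same arrays (permutation p = 0.0395) and -0.44 for deviations from the genotype means, but by the brightest and the dimmest probe it was -0.12 and -0.19 over the 12 arrays.

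The level of Ifnb1 after LPS was also set against the LPS change of each receptor in the 11 complete cultures. Pearson's r of the Ifnb1 level with the receptor change was -0.47 for Ifnar1 (permutation p = 0.142), 0.31 for Ifnar2 (p = 0.350), 0.29 for Ifngr1 (p = 0.393) and 0.19 for Ifngr2 (p = 0.566). Spearman's rho was -0.54, 0.39, 0.26 and 0.15 (permutation p = 0.0956, 0.238, 0.439 and 0.673). With the farthest 2 cultures left out, r was -0.67 (permutation p = 0.0566), 0.11, 0.51 and 0.26. As deviations from the genotype means, r was -0.74, -0.27, 0.21 and -0.30, so that the relations with Ifnar2 and Ifngr2 changed sign within genotypes. By the brightest and the dimmest Ifnar1 probe, r was -0.19 and -0.01.

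**Figure D4:**
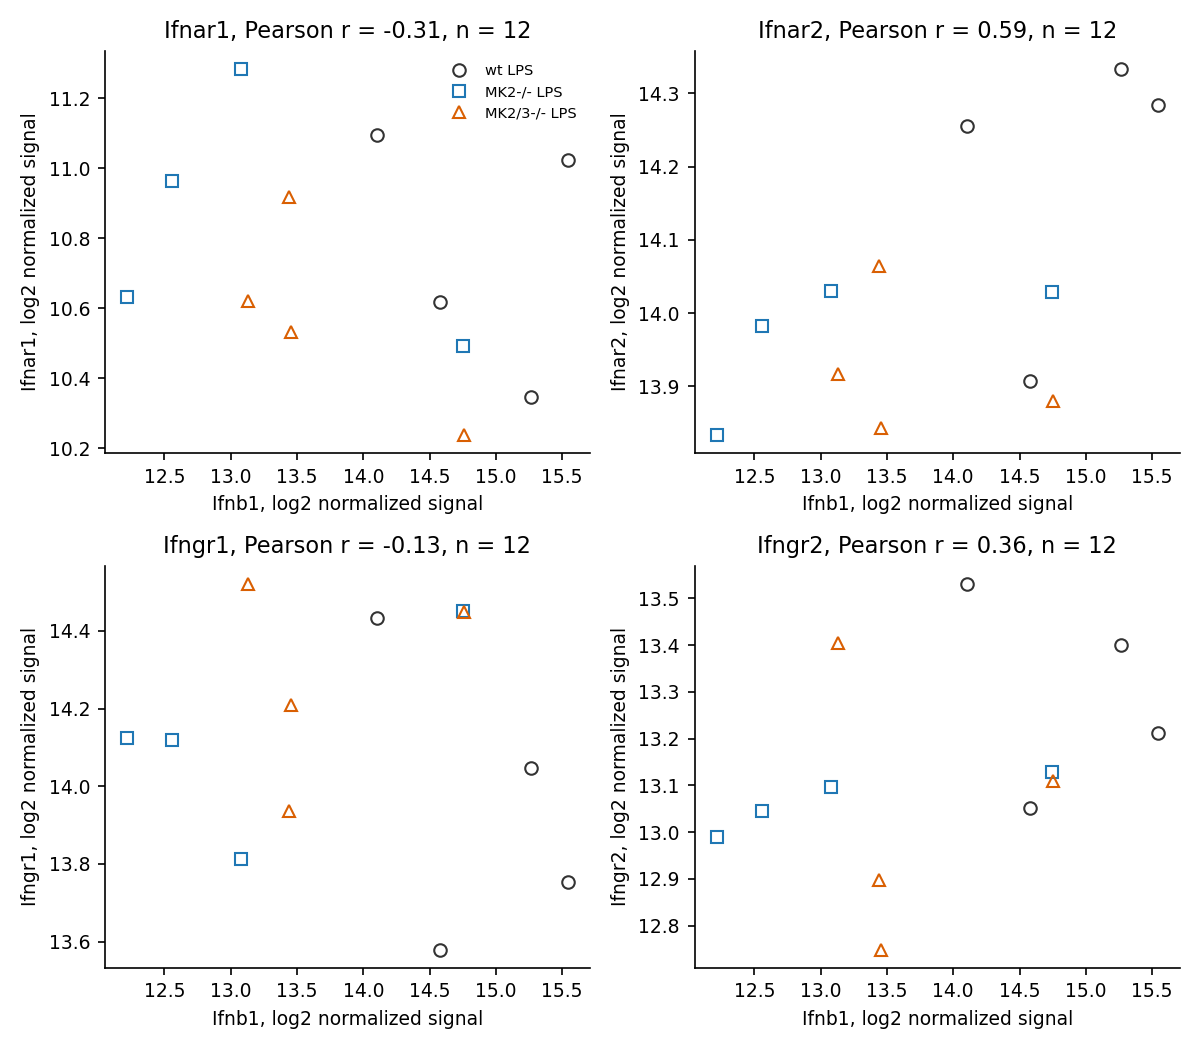
Ifnb1 level against the level of each receptor on the 12 LPS arrays (both axes quantile-normalized log2 intensity), coloured by genotype, with Pearson's r in each panel. The r values are -0.31, 0.59, -0.13 and 0.36 for Ifnar1, Ifnar2, Ifngr1 and Ifngr2.

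The genes whose levels ran most like each member over the 12 LPS arrays were taken from 13286 genes, as a description over arrays that share slides. They were picked for the highest r on these same arrays, and the highest of so many r is large by the choice itself. None was tested, and no relation to a member is drawn from them. For Ifnb1 they were Ctbp2 (r = 0.90), Dhx30 (0.89) and Kcmf1 (0.89), where the median gene had r = -0.02. For Ifnar1 they were Rab11fip1 (0.92), Lrrc4 (0.91) and Zfp143 (0.91), and for Ifnar2 Hmbox1 (0.93), Pacsin2 (0.90) and Snx13 (0.88). Ifngr1 ran closely like AK158615 and 2510009E07Rik (0.96 each), and Ifngr2 most like Fadd (0.91), Pdia3 (0.91) and B230219D22Rik (0.89).

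Around the members, the other ligands rose far less than Ifnb1. Of 17 further type I interferon genes 13 were measured, and limma called 8 up in wt BMDM, 2 in MK2-/- and 9 in MK2/3-/- BMDM and none down. Of all genes 16.9%, 18.4% and 24.7% were called in the same order. The median LPS changes of the 13 genes were 1.45, 0.59 and 1.40. These genes are near-identical in part, so that probes may share their transcripts. Ifna12 changed by 2.28, 1.30 and 2.59 and Ifna1 by 1.49, 1.46 and 1.42 (log2, in the order wt, MK2-/- and MK2/3-/-, the 1.30 not called). Ifna7 changed by 1.67, 0.17 and 1.72 and Ifna2 by 1.55, 0.74 and 1.67, neither called in MK2-/- BMDM. Ifna12 was not well above background on any medium array of wt or MK2-/- BMDM, so its changes there rest on background signals. Set against the dimmest signal that counted as well above background, its rise was 1.78-fold in MK2-/- BMDM. In wt BMDM that calculation gave 4.85-fold, which is the fitted change itself and no lower bound. Over the alternatives the fitted log2 change was as low as 0.74 in wt and 0.25 in MK2-/- BMDM. Ifna7 was above background on 1 of 4 MK2-/- and 2 of 4 MK2/3-/- LPS arrays, so that its values lie near background, and its MK2/3-/- change was 0.27 and not called with normexp background correction (limma adjusted p = 0.0900). With the culture as a block the counts were 10, 3 and 10. The wt call of Ifna7 was lost without wt LPS replicate 2 (limma adjusted p = 0.0610) or wt medium replicate 2 (0.0504), and Ifna12 was called in MK2-/- BMDM without LPS replicate 3 (1.66, adjusted p = 0.0428). For none of these genes did the LPS response differ between genotypes by the adjusted test. Of the type II and III interferons 2 of 3 were measured and none was called in any genotype, with Ifnl3 at 0.55, 0.59 and 0.69.

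Among 8 further receptors of the same structural class, 3 rose in each genotype and none fell, with medians of 0.58, 0.57 and 0.95. Of all genes 16.9% (wt), 18.4% (MK2-/-) and 24.7% (MK2/3-/-) were called. Only 4 of the 8 were well above background on all arrays of at least 1 group. F3 is tissue factor, the trigger of blood clotting and a relative of the cytokine receptors. It changed by 5.78 in wt BMDM, 8.19 in MK2-/- and 7.17 in MK2/3-/- BMDM. The 8.19 rests on background signals in medium (mean 2.47). Its lower bound was 138-fold on the scale of the scanner's background-subtracted signal, and the fitted log2 change fell to 4.50 among the alternatives. Some medium arrays of the other genotypes also missed the probe, which was detected in 3 of 4 (wt) and 2 of 4 (MK2/3-/-). Mean F3 levels after LPS were 10.50 (wt), 10.66 (MK2-/-) and 11.33 (MK2/3-/-), so MK2-/- BMDM did not reach the highest level. Il20rb, a receptor chain for cytokines of the IL-20 group, changed by 1.21, 1.63 and 2.01. Il10ra, the IL-10 binding chain, changed by 0.63, 0.57 and 1.36 (limma adjusted p = 0.0167, 0.0456 and 8.7e-06). Its wt call was lost without wt LPS replicate 2 or 3 or wt medium replicate 1 (adjusted p = 0.0615 to 0.0746). Its MK2-/- call was lost without any 1 of the MK2-/- arrays apart from LPS replicate 3 (adjusted p = 0.0772 to 0.164), and without any of 9 arrays of the other genotypes (at most 0.0556). Il10rb, which serves both IL-10 and type III interferons, changed by -0.34, -0.39 and -0.36 and was not called, save in MK2-/- BMDM without medium replicate 1 (-0.64, limma adjusted p = 0.0175).

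Of the 7 kinases and STAT proteins downstream of the receptors, 1 rose in wt BMDM, 1 in MK2-/- and 4 in MK2/3-/- BMDM, with medians of 0.87, 0.80 and 1.42. Of all genes 16.9%, 18.4% and 24.7% were called in the same order, so 1 of 7 does not set this list apart. Jak2 was the gene called in all 3, with changes of 3.55, 3.60 and 3.61. Stat2 changed by 0.89, 1.14 and 1.46 and Stat3 by 0.87, 0.80 and 1.42, each called in MK2/3-/- BMDM alone. These calls turned on single arrays: without wt LPS replicate 4, Stat2 and Stat3 were called in wt BMDM (limma adjusted p = 0.0254 and 0.0117), and without MK2-/- LPS replicate 4, Stat2 was called in MK2-/- BMDM (0.0364). In MK2/3-/- BMDM the call of Stat2 was lost without LPS replicate 1 or 2 or medium replicate 3 or 4 (limma adjusted p = 0.0512 to 0.0683). With the culture as a block limma also called Stat2 in MK2-/- BMDM (adjusted p = 0.0479). No difference in their LPS response between genotypes was called.

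The inhibitors of receptor signalling rose strongly in all genotypes, with 4 of 7 up in wt BMDM, 5 up and 1 down in MK2-/- and 6 up in MK2/3-/- BMDM. This stands beside 16.9%, 18.4% and 24.7% of all genes called. Their medians were 4.06, 4.39 and 4.68. Cish, whose probe was above background on 2 of 3 MK2-/- and 2 of 4 MK2/3-/- medium arrays, changed by 8.18, 8.16 and 9.61, Socs3 by 7.85, 7.28 and 7.72, and Socs1, which binds JAK kinases, by 7.48, 7.11 and 8.38. Usp18, which holds back signalling at IFNAR2, changed by 4.06, 4.39 and 4.68. The gene that fell was Ptpn6 (SHP-1, a phosphatase), by 0.52 in MK2-/- BMDM.

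Of 16 genes that drive Ifnb1 or carry the LPS signal to it, 9 rose and 2 fell in wt, 9 rose and 2 fell in MK2-/-, and 10 rose and 1 fell in MK2/3-/- BMDM. This stands beside 16.9%, 18.4% and 24.7% of all genes called. The medians of the 16 genes were 0.67, 0.89 and 0.89. Ikbke, a kinase that activates IRF3, changed by 2.48, 2.40 and 2.52, Nfkb1 by 2.25, 2.28 and 2.24, and Cd14, the LPS co-receptor, by 2.04, 1.79 and 1.66. Tlr4 fell by 0.93 in wt BMDM. Jun, part of the AP-1 factor that also sits on the Ifnb1 enhancer, changed by -1.71 in wt and -1.70 in MK2-/- BMDM, and by 0.28, not called, in MK2/3-/- BMDM. Its MK2-/- call was lost without MK2-/- medium replicate 2 (-1.50, limma adjusted p = 0.0688).

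The early interferon-stimulated genes rose in nearly all cases: 9 of 10 measured (of 12 listed) in wt BMDM, 9 in MK2-/- and 10 in MK2/3-/- BMDM. This stands beside 16.9%, 18.4% and 24.7% of all genes called. Their median log2 changes were 5.66, 5.69 and 6.00. Cxcl10, a T cell chemokine, changed by 7.61, 7.41 and 7.14 and Rsad2 (viperin, an antiviral enzyme) by 7.44, 7.59 and 7.85. Ifit1 changed by 6.66, 6.56 and 7.12 and Cmpk2 by 6.19, 6.26 and 6.83. Irf8, a macrophage transcription factor, was the gene outside the common pattern, with 0.16 in wt and 0.65 in MK2-/- BMDM, neither called, and 2.11 in MK2/3-/- BMDM.

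Between genotypes after LPS, 3 genes of these lists were called and all in MK2/3-/- against wt BMDM. They were Il10ra with a log2 difference of 0.98 (limma adjusted p = 0.00840), Jun with 2.12 (adjusted p = 0.0167) and Irf8 with 2.09 (adjusted p = 0.0308). The call of Jun was lost without wt LPS replicate 4 (adjusted p = 0.0644) or without MK2/3-/- LPS replicate 1 (0.0564) or replicate 2 (0.0594). That of Irf8 was lost without wt LPS replicate 1 or 4 or MK2/3-/- LPS replicate 1, 2 or 3 (limma adjusted p = 0.0763 to 0.122). Their LPS responses, tested as differences between genotypes, were not called.

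**Figure D5:**
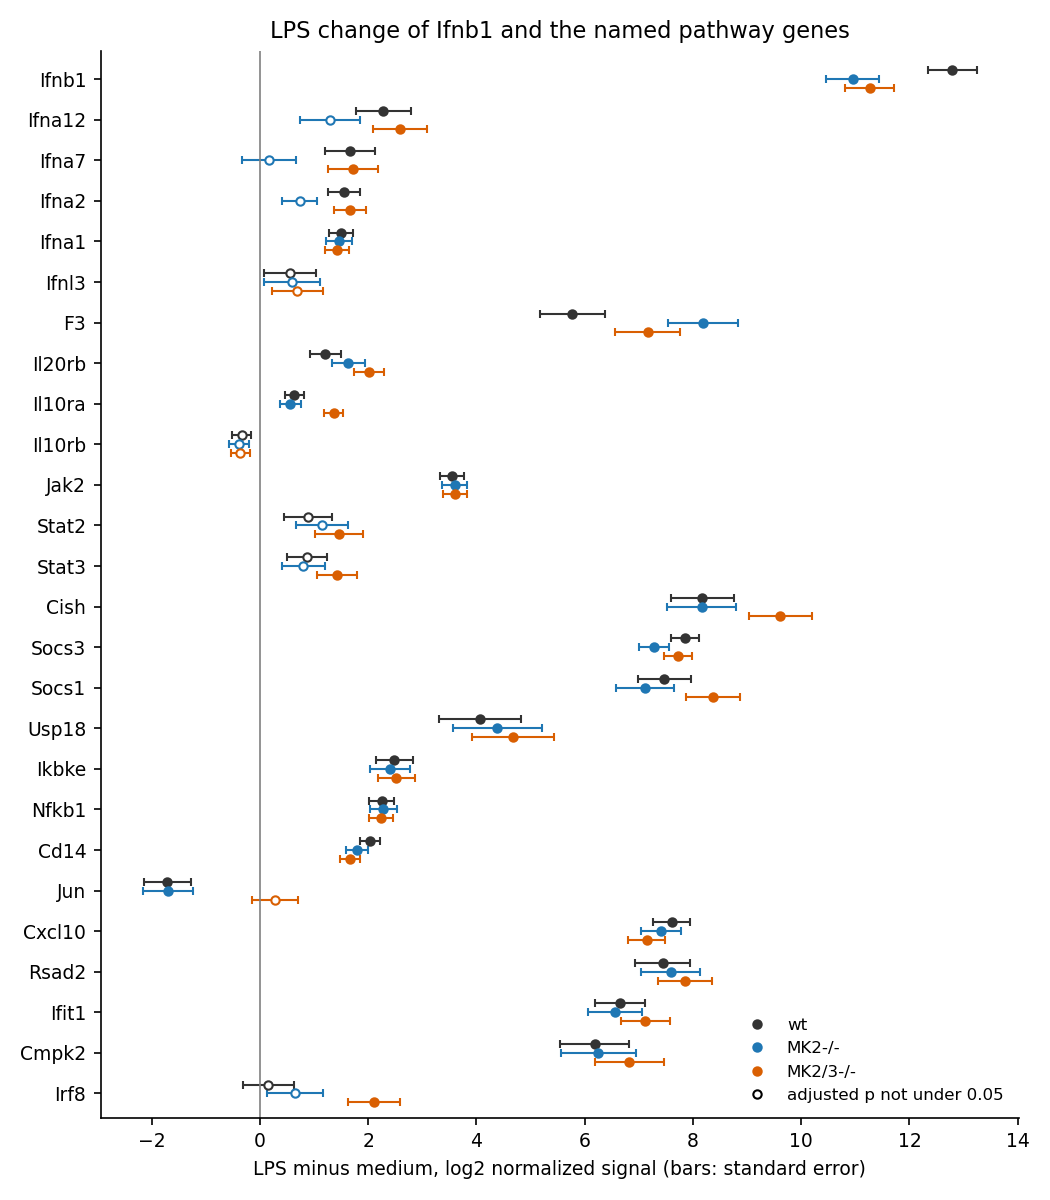
LPS change (log2, mean with SE) of Ifnb1 and 25 other genes of the pathway lists in wt, MK2-/- and MK2/3-/- BMDM. Open points did not pass the adjusted test, and Ifnb1 has the largest change in every genotype, between 10.95 and 12.79.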

How the data were processed

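Total RNA of BMDM, cultured with M-CSF, was labelled with Cy3 and hybridised to 1-colour Agilent arrays, 1 per sample. Per the file headers, the authors extracted spot intensity with Agilent Feature Extraction, whose processed signal is background-subtracted and detrended (on 2 arrays without the detrending step). Per the methods they then quantile-normalized the values and set each probe relative to its median in GeneSpring GX. The log2 values of the deposited series table, so centred and on the scale and in the direction of the scanner signals, served as an alternative.

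Here log2 processed intensity was quantile-normalized over 23 arrays, with outlier spots left out (258 missing probe values) and spots of a probe averaged. Accessions named 33391 probes, and a gene with more than 1 probe was represented by the probe that LPS raised most in wt BMDM, a choice that favours rises. Signals near background limit precision, and the lowest spot signal was 2.43. LPS contrasts, genotype pairs and their interactions were tested in 1 fit of 6 groups (limma 3.58.1, R 4.3.3), with Benjamini-Hochberg adjustment over 26512 genes at 0.05. Single values were tested by exact permutation and correlations by 100000 permutations. The fit was tested on simulated data. Replicates were separate cultures per the methods. Medium and LPS arrays were matched by replicate number and donor age in the labels, which coincide in 10 of 11 pairs. MK2-/- medium replicate 3 was matched by age and slide column to LPS replicate 4, as LPS replicate 3 has another age. Their deviations from the group means correlated in 11 pairs with r from 0.360 to 0.774 over 12735 genes above background on all arrays. Over 26399 genes r was 0.0626 to 0.561. Matched arrays also shared a slide column, so these correlations cannot tell a shared culture from a shared column. The arrays were taken as paired, with a correlation of 0.239 in the fit with the culture as a block. In a group, each array lay on the slide of its genotype, so that no fit can separate slide and genotype.

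The members, the pathway lists and the marker lists were chosen with earlier results of these data known. From each pathway list the genes named were those called between genotypes, and up to 4 with the largest LPS change in wt BMDM among genes above background on all arrays of a group. Of 112 listed genes 103 were measured. Some genes that these rules name are not reported here. Ptpn6 and Tlr4 were named after their values were seen. Alternatives covered scaling, background correction, low signals, dim probes, probe choice, the samples in the fit, the methods' test, pairing and omission of each array. The use of the brightest probe and the tests of each probe were added after seeing the data.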

Additional observations from a re-analysis of the deposited data

How the results depend on the processing

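Of 12 counts of members called, 9 did not move under any alternative run. After LPS, 0 to 1 member was called for MK2-/- against wt BMDM when single arrays were left out. The LPS counts of both knockouts were 2 in place of 3 with each array scaled to its 75th percentile, that of MK2-/- BMDM also with the brightest probe of a gene (an alternative chosen after seeing the data), and that of MK2/3-/- BMDM also with the mean over probes. With the culture as a block no member's call changed. The LPS response of Ifnb1 in MK2/3-/- minus wt BMDM then had a limma adjusted p of 0.518, and 12 genes in place of 3 were called for that pair.

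Directions turned in these cases. With the brightest probe the LPS change of Ifnar1 was -0.60, -0.45 and -0.76 in wt, MK2-/- and MK2/3-/- BMDM, and with the mean over its probes it was 0.26 in MK2/3-/- BMDM (limma adjusted p = 0.149). With each array scaled to its 75th percentile the LPS change of Ifnar2 was 0.30, 0.12 and 0.18, that of Ifngr1 in MK2-/- BMDM 0.28 and that of Ifngr2 in wt BMDM 0.0456. Under this scaling MK2/3-/- minus MK2-/- BMDM after LPS was 0.0262 for Ifnar2 and 0.0281 for Ifngr2, the Ifnb1 interaction of that pair was -0.20, and r of Ifnb1 with Ifngr2 was -0.0029. As deviations from the genotype means r was 0.14 for Ifngr1 (levels), -0.27 for Ifnar2 and -0.30 for Ifngr2 (Ifnb1 level against receptor change). With normexp background correction Ifna7 changed by -0.0422 in MK2-/- BMDM. The causes were not tested, except that the percentile scaling raised bright probes as a class.

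When single arrays were left out, r of the levels ran from -0.53 to -0.19 for Ifnar1, 0.47 to 0.70 for Ifnar2, -0.23 to 0.0657 for Ifngr1 and 0.25 to 0.49 for Ifngr2. For the Ifnb1 level against the receptor changes it ran from -0.67 to -0.38, 0.06 to 0.54, 0.19 to 0.52 and 0.03 to 0.34. Differences that crossed 0 were the LPS change of Ifnar2 in wt (-0.15 to 0.006), of Ifngr1 in wt (-0.0882 to 0.20) and MK2/3-/- (-0.0672 to 0.13), of Ifna7 in MK2-/- (-0.0833 to 0.31), of Jun in MK2/3-/- (-0.0939 to 0.60) and of Irf8 in wt BMDM (-0.26 to 0.45). So did Ifnar1 in MK2-/- minus wt BMDM after LPS (-0.0757 to 0.19), Ifngr2 in MK2/3-/- minus MK2-/- BMDM (-0.15 to 0.0717) and the Ifnb1 interaction of that pair (-0.0425 to 0.84). With only the groups compared in the fit, the calls of Il10ra, Jun and Irf8 between MK2/3-/- and wt BMDM were lost (limma adjusted p = 0.202, 0.125 and 0.390), as they were with the methods' test (0.285, 0.192 and 0.503). Signals of Ifnb1 in medium lay at background, which limits its fold changes to lower bounds.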
